A study of Mus musculus with 9 samples.

Results

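The genes described here are 10 genes by which natural killer (NK) cells are recognised or act, in mouse lung allografts with and without obliterative bronchiolitis (OB). They were chosen by name, with earlier results of these data known. *Ncr1*, *Klrb1c*, *Klrd1*, *Klrk1*, *Klrc1*, *Klrg1* and *Klra8* encode receptors, *Tyrobp* a signalling adaptor, *Eomes* a transcription factor and *Xcl1* a chemokine. All 10 were on the array, where 16 probes carried a RefSeq transcript accession of one of them, out of 22909 named genes and 56601 probes tested.

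Left lungs of male C57BL/10 mice were placed orthotopically into male C57BL/6 recipients. Both strains carry the H2b haplotype, and the study describes donor and host as mismatched at minor histocompatibility antigens. The grafts were taken on day 21 after surgery and were graded histologically as OB (3 grafts) or non-OB (3 grafts), and 3 sham mice had a thoracotomy without transplantation and gave their left lungs on the same day. Total RNA of each of the 9 lungs was labelled with Cy3 and hybridised to a single-colour Agilent mouse array. All animals were young inbred adults and no genetic alteration is given for any of them. The OB and non-OB grafts had the same surgery, donor strain and recipient strain, and were separated only by the grading of tissue from the same lung that gave the RNA. The methods used mice of both strains as shams. By the study's clustering of the arrays the first sham lung came from C57BL/10 and the other two from C57BL/6. The labels differ from this, since they list donor strain C57BL/10 and recipient strain C57BL/6 even for the sham lungs. The RNA came from whole lung tissue, which holds lung cells of the donor together with leukocytes of donor and host.

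NK cells are innate lymphocytes that kill stressed, infected or foreign cells and release interferon gamma. Their decision to kill rests on a balance of activating and inhibitory receptors, many of them C-type lectin-like proteins encoded side by side in the NK gene complex. Several of these receptors read MHC class I or class I-like molecules on the target. Activating receptors have short tails and signal through membrane adaptors such as DAP12, the product of *Tyrobp*, and the T-box factor EOMES directs NK cell maturation. Few of the 10 genes belong to NK cells alone. *Ncr1* and *Klrb1c* come closest to being NK-specific in C57BL mice, whereas activated CD8+ T cells express *Klrd1*, *Klrk1*, *Klrg1*, *Eomes* and *Xcl1*, and macrophages, monocytes, neutrophils and dendritic cells express *Tyrobp*.

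Values are log2 of the normalised intensity, after each array was scaled to a common trimmed mean, and a difference of 1 is a doubling. A gene was called changed against sham at an adjusted p under 0.05 in limma (Benjamini-Hochberg adjustment over all probes) with a change of at least 2 times. A gene with several probes is represented by its brightest one. Between 58.6% and 69.6% of the spots of an array were well above background, no spot was saturated, and the lowest correlation between any pair of arrays was 0.949. The arrays lay on 4 slides, and slide 1 alone held grafts (OB 1 and non-OB 1) together with sham lungs (sham 1 and sham 2). The lung markers *Sftpc*, *Sftpb*, *Ager*, *Hopx*, *Scgb1a1*, *Foxj1*, *Cdh5* and *Pecam1* were all well above background on all arrays. Nothing in the labels says how the animals were otherwise related. A limma p-value sets a difference of group means against a spread between these lungs that borrows from all probes. That spread also holds any differences between slides and, among the shams, between strains. With 3 arrays in a group, the precision of every value is limited by their number.

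The upstream sequences of 4 members are shown because RUNX factors, which act in NK cells and CD8+ T cells, recognise a core that recurred among the members. Each line gives the 250 bases before the transcription start from RefSeq (GRCm38.p6), 5′ to 3′ on the strand of the gene, with matches to TGTGGT or to its reverse complement ACCACA in capitals.
Xcl1 (chr1:164935523-164935772, minus strand): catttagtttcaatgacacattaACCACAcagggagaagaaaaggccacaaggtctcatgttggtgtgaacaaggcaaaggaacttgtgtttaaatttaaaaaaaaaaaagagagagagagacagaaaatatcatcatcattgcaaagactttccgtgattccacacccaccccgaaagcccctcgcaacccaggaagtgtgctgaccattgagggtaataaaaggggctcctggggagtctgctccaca
Klrk1 (chr6:129623865-129624114, minus strand): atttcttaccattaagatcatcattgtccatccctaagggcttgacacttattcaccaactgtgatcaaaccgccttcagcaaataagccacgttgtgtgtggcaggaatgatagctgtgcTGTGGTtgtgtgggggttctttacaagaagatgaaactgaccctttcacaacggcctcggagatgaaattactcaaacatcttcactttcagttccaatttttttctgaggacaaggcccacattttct
Klrb1c (chr6:128788642-128788891, minus strand): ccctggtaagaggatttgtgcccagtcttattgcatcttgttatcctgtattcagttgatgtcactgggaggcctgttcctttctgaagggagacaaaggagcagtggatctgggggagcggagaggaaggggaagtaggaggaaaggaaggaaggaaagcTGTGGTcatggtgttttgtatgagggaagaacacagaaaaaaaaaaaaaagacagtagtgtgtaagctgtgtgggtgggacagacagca
Ncr1 (chr7:4337465-4337714, plus strand): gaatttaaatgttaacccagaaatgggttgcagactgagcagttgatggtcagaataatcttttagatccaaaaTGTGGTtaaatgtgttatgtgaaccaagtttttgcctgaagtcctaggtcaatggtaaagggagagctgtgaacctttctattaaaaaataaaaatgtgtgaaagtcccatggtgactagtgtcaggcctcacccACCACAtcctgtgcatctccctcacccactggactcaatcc

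The match lay at position -227 from the start of *Xcl1*, -129 of *Klrk1* and -89 of *Klrb1c*, and *Ncr1* held 2 matches, at -176 and -41. For *Ncr1* the window of the more upstream of its 2 annotated starts is shown. Of the 7 members with an entry (*Klrb1c*, *Klrc1*, *Klrk1*, *Ncr1*, *Xcl1*, *Klra8* and *Eomes*), the first 5 held a match on one strand or the other. Among all 32851 upstream windows of the same length 14.0% did. The T-box core GGTGTG, whose letters can overlap the RUNX core when they follow each other, was found in 1 of the 7 members, *Xcl1*, and in 16.3% of all windows. The Ets core AGGAAG was found in 2 members, *Klrb1c* and *Xcl1*, and in 29.5% of windows, and the AP-1 site TGAGTCA in 0 of 7 members and in 4.46% of windows. A match is a run of letters and not a bound site. The RUNX letters were present upstream of members that rose in the grafts (*Xcl1*, *Klrk1*) and of members that were not called (*Klrb1c*, *Ncr1*).

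The first comparison asked which NK genes differ between a lung with OB and an untransplanted lung. In OB, *Xcl1*, *Tyrobp*, *Klrd1* and *Klrk1* rose, by 15.7, 3.04, 2.81 and 2.63 times. No member was called lower, and the members nearest to being NK-specific, *Ncr1* and *Klrb1c*, had log2 fold changes of -0.92 and -0.41 without a call. The list of cell-type markers used here counted *Eomes* with them as defining NK cells. It went the other way, with a log2 fold change of 1.72 that was not called (adjusted p = 0.0687 in limma). Thus 4 of 10 members were called higher, where limma called 2.72% of all probes higher, and 0 of 10 lower, where it called 2.43% of all probes lower. At an unadjusted p under 0.05 limma had 6 members higher and 1, *Klra8*, lower, against 8.55% and 11.2% of all probes. The median log2 fold change of the 10 members was 1.31, and that of all probes 0.08. In whole lung tissue, more cells of a type cannot be told apart from more RNA per cell.

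*Klrd1* (NM_010654) encodes CD94, the invariant partner of the NKG2 receptors that read the class I-like molecule Qa-1. Its log2 level was 11.06, 11.26 and 11.24 in the OB grafts 1 to 3, against 9.42, 9.65 and 10.00 in the shams 1 to 3. Every OB graft lay more than 1 log2 unit above every sham lung. The log2 fold change was 1.49 (SE 0.20; limma, adjusted p = 0.00641).

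*Klrk1* (NM_033078) encodes NKG2D, an activating receptor for stress-induced ligands that also costimulates CD8+ T cells. It was at 9.75, 10.40 and 9.99 in OB and at 8.32, 8.75 and 8.88 in sham, and the groups did not overlap. Its log2 fold change of 1.40 (SE 0.27; limma, adjusted p = 0.0240) was less secure than that of *Klrd1*, since the call was lost without any of OB 2, OB 3, sham 1, sham 2 or sham 3 (adjusted p up to 0.0861), while the log2 fold change stayed between 1.22 and 1.54 whichever array was left out. *Klrg1* (NM_016970), an inhibitory receptor of mature NK cells and of effector T cells that binds cadherins, lay at 9.64, 8.76 and 8.89 in OB and at 7.54, 8.20 and 7.85 in sham. Again no OB graft overlapped a sham lung, with OB 1 the highest. The probe just missed the threshold (log2 fold change 1.23, SE 0.30; limma, adjusted p = 0.0545), and the second probe of *Klrg1* just passed it (1.15, SE 0.27, adjusted p = 0.0483), so that the call of this gene depended on the probe.

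*Tyrobp* (NM_011662) was at 14.68, 14.59 and 14.74 in OB and at 12.56, 13.38 and 13.26 in sham. The OB grafts were close together, whereas sham 1 lay well below the other sham lungs. The log2 fold change was 1.60 (SE 0.24; limma, adjusted p = 0.00895). *Eomes* (NM_010136) varied far more, with 9.41, 8.42 and 9.26 in OB and 6.51, 7.54 and 7.87 in sham. Although all 3 OB grafts exceeded all sham lungs, its log2 fold change of 1.72 (SE 0.45) was not past the threshold of limma (adjusted p = 0.0687). The second probe of *Eomes*, for the transcript NM_001164789, did not reach a signal well above background on any of the 9 arrays.

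*Xcl1* (NM_008510), the chemokine lymphotactin that NK cells and activated CD8+ T cells release and that attracts XCR1+ dendritic cells, showed the largest change of the 10 genes. It was at 9.10, 9.72 and 10.32 in OB and at 5.15, 6.23 and 5.84 in sham, and the lowest OB graft stood far above the highest sham lung. Its log2 fold change reached 3.98 (SE 0.38; limma, adjusted p = 0.00229), and with any 1 array left out it stayed between 3.67 and 4.28 and was called each time.

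The remaining receptors had no call, and the main probes of *Ncr1*, *Klrb1c* and *Klra8* had log2 fold changes below 0. *Ncr1* (NM_010746) encodes NKp46, the activating receptor used to identify NK cells across mouse strains. It was at 4.57, 6.15 and 5.97 in OB and at 6.41, 6.12 and 6.92 in sham, so that the groups overlapped at sham 2. On OB 1, the lowest array, it was not well above background. The log2 fold change was -0.92 (SE 0.44; limma, adjusted p = 0.309), and it was -0.42 without OB 1. *Klrb1c* (NM_008527), the NK1.1 antigen of C57BL mice, was at 8.09, 8.40 and 8.52 in OB and at 8.77, 8.65 and 8.82 in sham. Its OB grafts lay just below the sham lungs (log2 fold change -0.41, SE 0.21, adjusted p = 0.324). A second probe of the same transcript gave 0.02 (SE 0.28) and the remaining one, for the transcript NM_001159904, -0.72 (SE 0.24, adjusted p = 0.130), so that the 3 probes of *Klrb1c* did not share a direction.

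*Klra8* (NM_010650) encodes Ly49H, an activating receptor of C57BL mice that recognises a cytomegalovirus protein and signals through DAP12. It was at 9.25, 9.32 and 9.54 in OB and at 9.83, 9.89 and 10.34 in sham. All 3 OB grafts were below all 3 sham lungs, and the same held for the other probes of this gene. The log2 fold changes of the 3 probes were -0.65, -0.70 and -0.80, with adjusted p from 0.0977 to 0.215 in limma, and none was called. The Ly49 genes are close relatives in sequence, and whether these probes separate *Klra8* from its relatives was not tested. *Klrc1* (NM_010652), which encodes the inhibitory NKG2A partner of CD94, was not well above background on any of the 9 arrays, so no fold change is given. Its fitted value is still included in the counts and medians over the members.

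**Figure D1:**
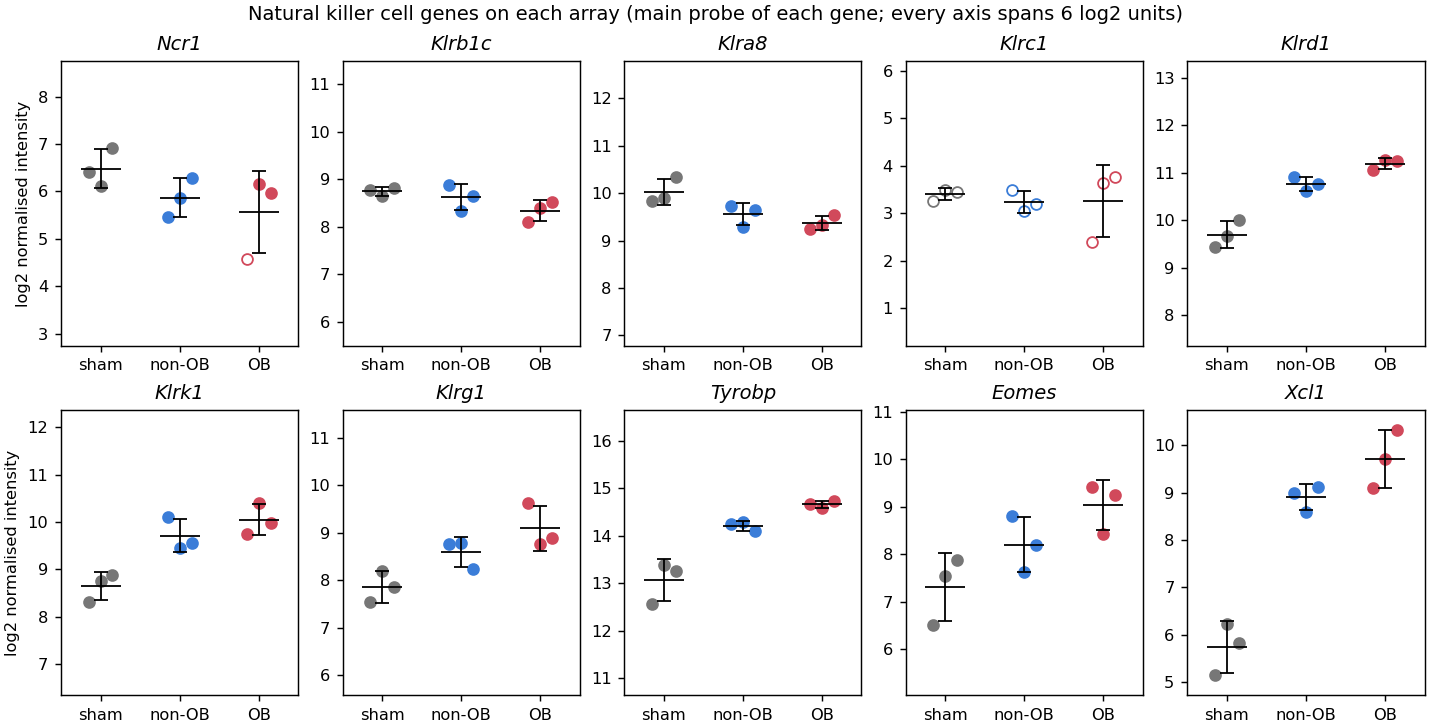
Log2 normalised intensity (vertical axes, each spanning 6 log2 units) of the main probe of each of the 10 genes on every array, by group; points are arrays, open where the probe was not well above background, and bars are mean ± SD (n = 3). *Klrd1*, *Klrk1*, *Klrg1*, *Tyrobp*, *Eomes* and *Xcl1* were higher on all 3 OB arrays than on all 3 sham arrays, whereas *Klrb1c* and *Klra8* were lower on all 3.

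As the plot of each gene by array shows, groups that did not overlap were common in this comparison. The OB arrays lay wholly above the sham arrays in 6 of 10 members, against 20.0% of all probes, and wholly below in 2 of 10, against 16.2% of all probes. The second of these shares is near the background. Sham 1, the C57BL/10 lung by the study's clustering, was the lowest of the 3 sham lungs for all 6 genes that were higher in OB. Against sham 1 alone 2 members, *Tyrobp* and *Xcl1*, were called higher, as were 0.366% of all probes. Within slide 1 the OB graft exceeded the mean of sham 1 and sham 2 by 3.41 for *Xcl1*, 1.71 for *Tyrobp*, 1.52 for *Klrd1* and 1.22 for *Klrk1*, and *Ncr1* differed by -1.69. With slide as a fixed block in the model, 0 members were called, and only 4 of all 56601 probes were called higher, although the log2 fold changes were 3.76 for *Xcl1*, 1.72 for *Tyrobp*, 1.65 for *Klrd1* and 1.56 for *Klrk1*. With slide as a random block, 6 members were called higher, *Klrg1* and *Eomes* joining those 4, beside 3.50% of all probes.

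The second comparison asked the same of grafts without OB, set against the same 3 sham arrays. *Xcl1*, *Tyrobp* and *Klrd1* rose in non-OB grafts, by 8.94, 2.21 and 2.10 times, and no member was called lower. These are 3 of 10 members higher and 0 of 10 lower, where limma called 1.81% of all probes higher and 0.710% lower. At an unadjusted p under 0.05 limma had 5 members higher and 0 lower, against 9.14% and 7.98% of all probes. The median log2 fold change of the members was 0.81, and that of all probes 0.13.

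*Xcl1* was at 8.98, 8.60 and 9.12 in the non-OB grafts 1 to 3, far above the sham lungs (log2 fold change 3.16, SE 0.38; limma, adjusted p = 0.00801). *Tyrobp* was at 14.24, 14.29 and 14.10 (1.14, SE 0.24, adjusted p = 0.0473) and *Klrd1* at 10.90, 10.62 and 10.77 (1.07, SE 0.20, adjusted p = 0.0343). Both genes were wholly above sham, but their calls were close to the threshold. *Tyrobp* lost its call when any 1 of the 9 arrays was left out (adjusted p from 0.0708 to 0.102). *Klrd1* lost it without OB 2, OB 3, any non-OB array, sham 1 or sham 2, with an adjusted p of up to 0.149. The call of *Xcl1* held in each of these refits.

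*Klrk1* in the non-OB grafts was at 10.10, 9.45 and 9.57, also wholly above sham, with a log2 fold change of 1.06 (SE 0.27) that was not called (adjusted p = 0.0925 from limma). For *Klrg1* the arrays read 8.76, 8.78 and 8.23, with the lowest graft just above the highest sham lung (0.73, SE 0.30, adjusted p = 0.273). *Eomes* was at 8.80, 7.62 and 8.19 and overlapped the sham lungs (0.90, SE 0.45, adjusted p = 0.362). Non-OB 1 was the highest of the 3 grafts for both *Klrk1* and *Eomes*.

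The receptors without a rise in OB had none in non-OB grafts. *Ncr1* was at 5.47, 5.86 and 6.28, overlapping the sham lungs (log2 fold change -0.61, SE 0.44; limma, adjusted p = 0.463). *Klrb1c* was at 8.87, 8.33 and 8.65, on both sides of the sham lungs (-0.13, SE 0.21, adjusted p = 0.750). *Klra8* was at 9.73, 9.29 and 9.64, below all sham lungs as in OB (-0.47, SE 0.21, adjusted p = 0.318). Over the members, the non-OB arrays lay wholly above sham in 5 of 10, against 16.3% of all probes, and wholly below in 1 of 10, against 12.6% of all probes. With slide as a fixed block 0 members and 0 of all probes were called higher here, and with slide as a random block 3 members, *Xcl1*, *Tyrobp* and *Klrd1*, were, beside 2.66% of all probes.

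**Figure D2:**
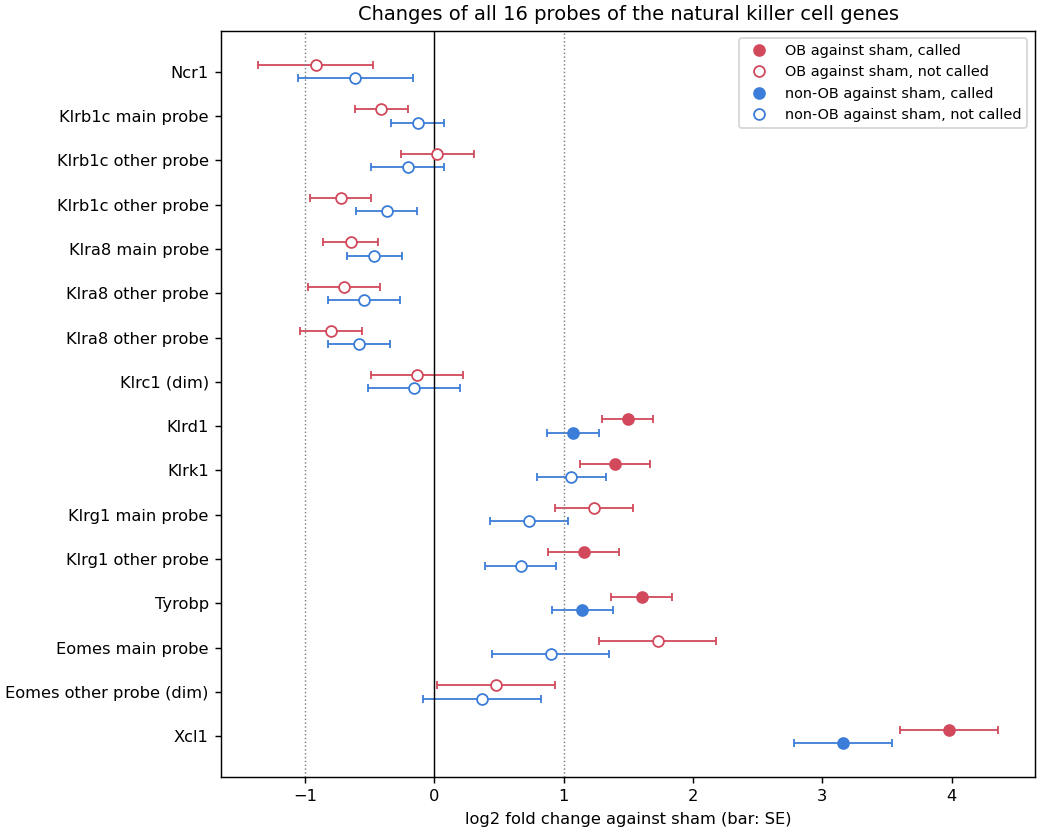
Log2 fold change against sham (horizontal axis, bars are SE) of all 16 probes, for OB (red) and non-OB (blue); filled points were called, dotted lines mark a change of 2 times, and dim marks probes not well above background on any array. The probes of *Klrd1*, *Klrk1*, *Klrg1*, *Tyrobp* and *Xcl1* lie to the right of 0 in both groups and those of *Ncr1* and *Klra8* to the left.

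The third comparison asked which NK genes separate OB from non-OB grafts. No member was called in either direction in limma, and neither was any other probe, so that the members' 0 of 10 stands beside 0.00% of all probes. At an unadjusted p under 0.05 limma had 0 members, against 0.542% of probes higher and 1.40% lower in OB. The methods' t-test without adjustment called 2 members higher, *Klrd1* and *Tyrobp*, where it called 0.532% of all probes higher, and none after Benjamini-Hochberg adjustment. The same 2 genes were the ones in which all OB arrays lay above all non-OB arrays (1.09% of all probes did), and no member lay wholly below (2.86% of all probes did). Of the 10 members, 7 had a positive log2 difference, with a median of 0.38 against -0.05 for all probes. The 7 include *Klrc1*, whose probe stayed dim on every array, so that its sign carries no weight. The median counts its value too.

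The difference of OB from non-OB was 0.42 (SE 0.20) on the log2 scale for *Klrd1*, 0.46 (SE 0.24) for *Tyrobp*, 0.82 (SE 0.38) for *Xcl1* and 0.83 (SE 0.45) for *Eomes*. It was 0.34 (SE 0.27) for *Klrk1*, 0.50 (SE 0.30) for *Klrg1*, -0.31 (SE 0.44) for *Ncr1*, -0.28 (SE 0.21) for *Klrb1c* and -0.18 (SE 0.21) for *Klra8*. All adjusted p were 1 in limma. A p that misses the threshold does not show that the grafts were alike in these genes.

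Each of slides 1 to 3 held 1 OB and 1 non-OB array, so that the difference can be read within a slide. For *Tyrobp* it was 0.44, 0.49 and 0.44 on the 3 slides, nearly the same each time. For *Klrd1* it was 0.15, 0.49 and 0.62, and for *Xcl1* 0.12, 0.60 and 1.73, positive throughout but of unequal size. *Eomes* (0.61, 0.24 and 1.63) and *Klrg1* (0.87, 0.52 and 0.11) were also higher in OB on every slide. *Klrk1* was not, at -0.36, 0.83 and 0.54. *Ncr1* (-0.90, -0.13 and 0.11), *Klrb1c* (-0.78, -0.25 and 0.19) and *Klra8* (-0.47, -0.32 and 0.25) were lower in OB on slides 1 and 2 and higher on slide 3.

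**Figure D3:**
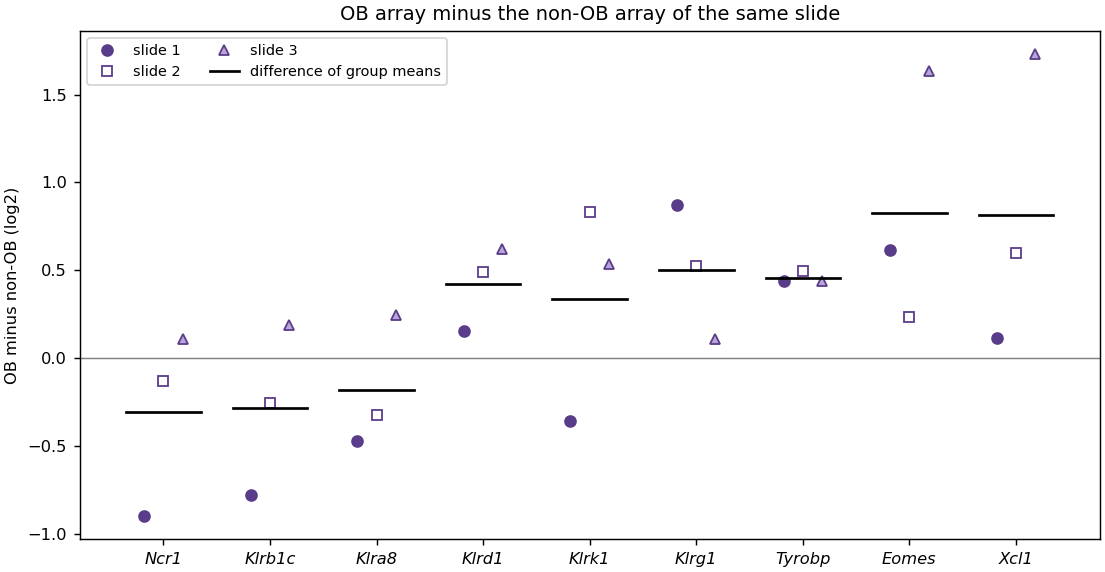
Log2 level on the OB array minus that on the non-OB array of the same slide (vertical axis) for 9 members; symbols mark slides 1 to 3 and the black line the difference of the group means. *Klrd1*, *Klrg1*, *Tyrobp*, *Eomes* and *Xcl1* lie above 0 on all 3 slides, with *Tyrobp* the least spread.

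Across the 9 arrays the members fell on both sides of *Klrd1*. Its log2 level ran with that of *Xcl1* (Pearson r = 0.97), *Klrk1* (0.97), *Tyrobp* (0.96), *Eomes* (0.86) and *Klrg1* (0.81), and against that of *Klra8* (-0.68), *Klrb1c* (-0.51) and *Ncr1* (-0.51). *Ncr1* in turn ran with *Klra8* (0.69) and *Klrb1c* (0.65) and against *Klrg1* (-0.87). These values describe 9 arrays that share 3 group levels, slides and scaling, and are not a test.

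Among the genes most like *Klrd1* over the 9 arrays were *Cxcr6*, *Unc93b1* and *Ly9*, with r from 0.990 to 0.993. *Cxcr6* encodes a chemokine receptor of effector T cells and NK cells, *Ly9* a lymphocyte receptor of the SLAM family, and *Unc93b1* a protein of endosomes. The 5 genes most like *Ncr1* were *Drosha*, *Tgfa*, *Pou2f1*, *Zbtb20* and *Arhgef11*, with r from 0.976 to 0.984. *Drosha* processes microRNA precursors and *Tgfa* is a growth factor, and none of these 5 is known as a marker of NK cells.

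Of 20 other receptors of the NK gene complex listed, 18 were on the array. Against sham, OB had 4 of them called higher and 0 called lower, beside the 2.72% and 2.43% of all probes, with a median log2 fold change of 0.14. The called genes were *Klri1* (at least 2.23-fold higher, adjusted p = 0.0156 from limma), *Klri2* (at least 3.29-fold, adjusted p = 0.00479), *Klra17* (log2 fold change 2.08, SE 0.47, adjusted p = 0.0415) and *Klra2* (1.23, SE 0.29, adjusted p = 0.0473). Neither *Klri1* nor *Klri2* was well above background in sham lungs, and their folds set the mean of OB against the lowest signal well above background, or the probe's own where higher. *Klri1* was also not well above background on OB 3 and non-OB 2, so that its OB mean includes a dim array. *Klra17* (Ly49Q) and *Klra2* (Ly49B) are unusual members of the Ly49 family in being found on myeloid and dendritic cells. *Clec2d* (-0.56, adjusted p = 0.313), a ligand of inhibitory NKR-P1 receptors, and the Ly49 gene *Klra1* (0.09, adjusted p = 0.893) were not called.

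NK surface receptors of other families had more calls, in both directions. Of 21, 10 were called higher and 2 lower in OB, with a median log2 fold change of 1.67. The checkpoint receptor *Tigit* was at least 16.7-fold higher (adjusted p = 0.00138 from limma), and *Cxcr6* (3.20, SE 0.31), the SLAM receptor *Slamf7* (2.98, SE 0.24) and the interleukin-12 receptor chain *Il12rb1* (2.84, SE 0.26) rose as well. The lower genes, named after their values were seen, were *S1pr5* (-1.81, SE 0.28; limma, adjusted p = 0.0109) and *Itga1* (-1.15, SE 0.19, adjusted p = 0.0131). *S1pr5* encodes the sphingosine phosphate receptor by which mature NK cells leave bone marrow and lymph nodes, and *Itga1* the CD49a integrin. Which cells of the whole lung gave the *Itga1* signal was not tested. *Itgam* (0.59, adjusted p = 0.443) and *Il15ra* (-0.33, adjusted p = 0.416) were not called.

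Among 11 adaptors and kinases that carry NK receptor signals, 7 were called higher and 0 lower in OB (median 1.49). *Sh2d1a* (2.28, SE 0.42), *Zap70* (2.01, SE 0.27), *Fcer1g* (1.77, SE 0.23) and *Lcp2* (1.74, SE 0.26) changed most, and *Hcst*, the DAP10 adaptor of NKG2D and named after its values were seen, rose by 1.49 (SE 0.23; limma, adjusted p = 0.0102). *Cd247* (-0.11) and *Plcg2* (0.97) were not called. Of 9 other transcription factors of NK cells, 3 were called higher and 0 lower (median 0.76). These were *Tox* (3.17, SE 0.27), *Runx3* (2.25, SE 0.38) and *Tbx21* (1.44, SE 0.26), the gene for the EOMES relative T-bet, while *Id2* (0.76) and *Zeb2* (-0.20) were not called.

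Of 9 ligands read by NK receptors, 2 were called higher and 0 lower in OB (median 0.48). They were *Cd48* (1.98, SE 0.26) and *H2-T23* (1.35, SE 0.18; limma, adjusted p = 0.0065), which encodes Qa-1, the ligand of CD94 with NKG2A. *Cdh1*, the E-cadherin ligand of *Klrg1* and a gene of epithelium, had -0.81 (SE 0.20, adjusted p = 0.0546), and *Pvr* -0.30, both without a call. Of 6 cytokines that act on NK cells, *Il21* (at least 6.11-fold higher) and *Il12b* (2.94, SE 0.25) were called and *Il15* (0.65) and *Il18* (-0.15) were not. Of 8 cytotoxic effector genes, 4 were called higher, *Gzmk*, *Ifng*, *Nkg7* and *Fasl*, and 1 lower, *Gzma*, while *Prf1* and *Gzmm* were not called.

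In non-OB grafts, beside 1.81% of all probes called higher and 0.710% lower, the same lists had as many calls or fewer. Of the 18 receptors of the NK gene complex 2, *Klri1* and *Klri2*, were called higher and 0 lower (median log2 fold change 0.11). Of the 21 other surface receptors 7 were called higher and 1, *S1pr5* (-1.42, SE 0.28), lower (median 0.93). Called higher were 3 of 11 adaptors and kinases (median 1.08), 2 of 9 transcription factors (0.62), 2 of 9 ligands (0.18), 2 of 6 cytokines (1.03) and 1 of 8 cytotoxic genes (0.54), and *Gzma* was the only one of these genes called lower (-1.10, SE 0.21). Between OB and non-OB no gene of these lists was called in limma. Whether the changes of the 2 kinds of graft from sham differ was tested only by that direct comparison.

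The receptor of *Xcl1* rose with its ligand. *Xcr1* did not reach a signal well above background in any of the sham lungs. Its level in OB was at least 7.08-fold higher (limma, adjusted p = 0.0025) and its level in non-OB at least 3.18-fold higher (adjusted p = 0.0109). All 4 of the other genes listed for the XCR1+ dendritic cell, *Batf3* (2.72, SE 0.31), *Clec9a* (2.61, SE 0.30), *Itgae* (2.43, SE 0.21) and *Irf8* (1.41, SE 0.29), were called higher in OB, and the first 3 of them in non-OB as well. *Itgae*, the CD103 integrin, is also expressed by T cells of mucosal tissue.

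**Figure D4:**
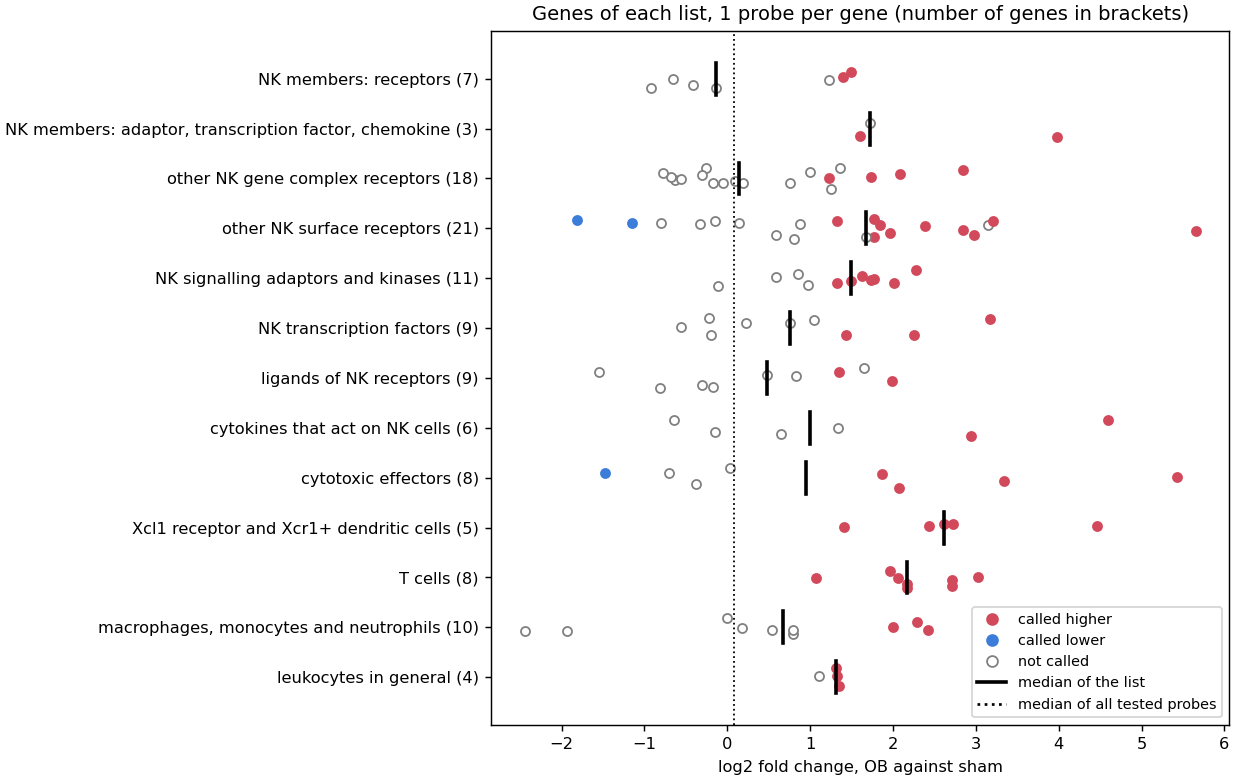
Log2 fold change of OB against sham (horizontal axis) for the genes of each list, 1 point per gene, with red for called higher, blue for called lower and open for not called; black bars are list medians and the dotted line is the median of all probes, 0.08. The *Klr* receptors of the members and of the rest of the NK gene complex spread over both sides of the dotted line, whereas all 8 T-cell genes and all 5 genes of XCR1+ dendritic cells lie to its right. Genes not well above background in sham are drawn at their fitted value.

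Markers of other cells that express the called members moved in the same comparisons. All 8 T-cell markers were called higher in OB, among them *Cd8a* (3.03, SE 0.40) and *Cd3g* (2.71, SE 0.29), and 5 of 8 in non-OB. For this and the following lists, 2.72% of all probes were called higher in OB and 1.81% in non-OB. Called lower were 2.43% and 0.710% of all probes. The mean log2 level of the T-cell markers lay between 11.68 and 12.04 in OB, 10.92 and 11.37 in non-OB and 9.10 and 9.85 in sham. Sham 1 was the lowest array, as it was for *Klrd1*, *Klrk1*, *Klrg1*, *Tyrobp*, *Eomes* and *Xcl1*. It was also the lowest for the mean levels of the lists of myeloid and general leukocyte genes given below, so this was not particular to T-cell genes. Of the 10 markers of macrophages, monocytes and neutrophils, which share *Tyrobp*, 3 were called higher in OB (*Fcgr1*, *Cd68* and *Adgre1*). In non-OB 2 were called higher. The neutrophil genes *S100a8* (-1.93, adjusted p = 0.233 in limma) and *S100a9* (-2.44, adjusted p = 0.121), named after their values were seen, were not called in OB. Both lay below all non-OB grafts there, 2 of the 10 markers against 2.86% of all probes. *Csf3r* (0.18, adjusted p = 0.792), another neutrophil gene of the list, was not called and overlapped the non-OB grafts. *Ly6c2* (-0.01) was not called either. In OB, *Adgre1*, *Cd68* and *Csf1r* of this list lay above all non-OB grafts, 3 of 10 against 1.09% of all probes. The mean level of this list was 13.02 to 13.68 in OB, 13.65 to 13.85 in non-OB and 12.65 to 13.14 in sham. The general leukocyte genes *Ptprc*, *Cd53* and *Laptm5* were called higher in OB, by 1.35, 1.33 and 1.31. The remaining gene of their list, *Coro1a* (1.11, adjusted p = 0.138 in limma), was not called. The mean of this list of 4 was 12.65 to 12.79 in OB against 10.99 to 11.69 in sham. Of 8 genes of NKT cells and innate lymphoid cells 2, *Cd200r1* and *Il7r*, were called higher in OB. Of the 8 lung tissue markers, *Hopx* (-1.82, SE 0.23) and *Cdh5* (-1.48, SE 0.19) were called lower in OB and again in non-OB (-1.14 and -1.01), the list median was -0.95 in OB, and 5 of the 8 lay wholly below sham, against 16.2% of all probes. All 8 T-cell and 10 myeloid markers were well above background on every array. The part of these cells, and of the lower lung markers, in the changes of the NK genes was not tested.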

How the data were processed

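Total RNA from 9 lungs was hybridised singly to Cy3 single-colour Agilent arrays of 62976 spots, 3671 of them controls. The deposited scanner files hold processed spot intensity, which the authors obtained with Agilent Feature Extraction 12.0.3.1 (background-subtracted and spatially detrended, on a grid that names genome build mm9). They then scaled each array so that the mean intensity after trimming 2% at each end became 2500. That scaling was repeated here (factors 1.24 to 2.05) and equalled the authors' value table within a relative difference of 5e-10, so their value table added no separate evidence. Spots marked as outliers (53 to 111 per array) were left out, spots of the 300 probes printed 10 times were averaged, 4 probes had no usable spot, and log2 was taken without any filter on dim probes. Of the probes, 32991 were named by matching their RefSeq accession to RefSeq genes of GRCm38.p6, and no array coordinates are given. Upstream windows were read from a RefSeq promoter table of that build.

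A linear model with a mean for each of the 3 groups was fitted to all 9 arrays with limma 3.58.1 (lmFit and eBayes, R 4.3.3), with Benjamini-Hochberg adjustment over all 56601 probes. Calls needed an adjusted p under 0.05 and, against sham, a change of at least 2 times. The fit was tested on simulated data. Both comparisons with sham share the same sham arrays. All members are named. Of each other list, called genes were named up to 4 by the size of their change in OB, and up to 2 uncalled genes by their mean signal. Further genes outside this rule, among them *S100a8*, *S100a9* and *Gzma*, were named after their values were seen. For *Ncr1* and *Klrd1* the 5 most correlated genes with a probe well above background on at least 6 arrays were selected, and some of those of *Klrd1* are not reported here. The members and lists were chosen with earlier results of these data known. Alternatives were the 75th percentile or quantile scaling, normexp background correction (offset 50, on the median spot signal, chosen because the files hold no mean signal), a filter on dim probes, slide or replicate number as a block, another fold threshold, the methods' t-test, a trended robust spread, the mean of a gene's probes, other sets of arrays, and leaving out each array. Each sample had its own columns, and 0 columns of other samples were present. Other versions were Python 3.11.15, numpy 2.4.6, pandas 2.3.3 and statmod 1.5.0.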

Additional observations from a re-analysis of the deposited data

How the results depend on the processing

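The count of NK genes called higher in OB than in sham (4) became 0 with the slide as a fixed block, 2 in the methods' t-test after Benjamini-Hochberg adjustment and 2 against the C57BL/10 sham lung alone, and lay between 3 and 4 when each array was left out in turn. It was 6 with the filter on dim probes, with the slide as a random block, with the trended robust spread and in the methods' t-test without adjustment. The shares of all tested probes called higher in these 4 settings were 4.98%, 3.50%, 3.00% and 4.22%. They were 2.72% in the main fit, 1.12% in the adjusted t-test and 1.28% to 2.68% with each array left out. For non-OB against sham (3) the same settings gave 0, 0 and 0, a fit of only those 6 arrays gave 1, and leaving out an array gave 1 to 2, with 1 without OB 2, OB 3, any non-OB array, sham 1 or sham 2. It was 3 with the slide as a random block (2.66% of all probes called higher). It was 4 with the filter (3.52%), the robust spread (2.14%) and the unadjusted t-test (3.96%). The main fit called 1.81% of all probes higher, the adjusted t-test 0.00% and the fit of those 6 arrays 0.947%. With each array left out the share was 0.489% to 1.63%. In the fixed slide-block fit 6 members were higher at an unadjusted p under 0.05 in each comparison with sham, where 6.13% (OB) and 6.52% (non-OB) of all probes were. OB against non-OB (0) became 2 in the methods' t-test without adjustment, where 0.532% of all probes were called higher. No member was called lower in any setting. Leaving out a single array turned 2 signs among uncalled differences. The log2 difference of *Klrb1c* in non-OB against sham became 0.014 without non-OB 2 (range over arrays left out -0.26 to 0.014), and that of *Ncr1* in OB against non-OB became 0.19 without OB 1 (range -0.60 to 0.19). The causes of these shifts were not tested. *Klrg1* and *Eomes* were called higher in OB in 4 of 23 alternatives each, *Klrk1* in 14, *Klrd1* and *Tyrobp* in 21 and *Xcl1* in 22.

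With the replicate number as a block, 3 members were called higher in OB and 1 in non-OB than in sham, beside 2.15% and 1.03% of all probes. Arrays of the same number deviated from their group means with correlations from -0.398 to 0.283, so the numbers were taken as names and not as pairs.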
